A study of Mus musculus with 35 samples.

Results

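The signal of 10 colon genes is described here in mice with and without the colitis that dextran sodium sulfate (DSS) causes. The genes were chosen by symbol, under a rule of enzymes and transporters with the largest falls in wild-type mice given DSS. They are among 19908 genes with a symbol of their own on the array. Not every gene that fits the rule is on the list. The list holds 4 enzymes (Tgm3, Kyat1, Eno3 and Mep1a), 4 proteins that move solutes or ions across membranes (Slc37a2, Slc15a1, Atp12a and Trpv3) and 2 other membrane proteins (Smim24 and Vsig2). All 10 were measured, each represented by 1 probe set. The question asked of them was whether they also fell in transgenic mice and in axenic mice.

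RNA from the colon of 35 C57BL/6N mice was hybridised to Affymetrix Mouse Gene 1.0 ST arrays, with 5 mice in each of 7 groups. The conventional groups were Reg3a-transgenic mice given DSS, untreated Reg3a-transgenic mice, wild-type mice given DSS and untreated wild-type mice. The 3 axenic groups all received DSS: recipients of flora from transgenic mice, recipients of flora from wild-type mice, and controls. DSS was given at 3% in drinking water for 5 days and followed by plain water, and colon was taken at day 12. Recipients were given flora 3 weeks before DSS, while the label of the axenic controls places DSS before any microbial transfer, so whether they were ever colonised is not given. No untreated axenic mice were analysed here. A microbial transfer is named in a label of the conventional groups too, but titles and design text do not name one for them and were followed. Neither the labels nor the design text state the promoter that drives the transgene, the number of transgenic lines, or the sex, cage and batch of the mice. The p-values below set a difference between group means against the spread between mice of these groups. They cannot separate treatment, genotype or flora from cage or batch.

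The surface epithelium of the colon takes up salt, water and the products of bacterial fermentation, and its cells are replaced continually from the crypts. Cells that have stopped dividing gain carriers, pumps and enzymes as they climb toward the lumen. DSS damages this layer, and by the time of repair the tissue holds both old and regenerating epithelium together with infiltrating leukocytes. Several of the genes are also known from other sites: Tgm3 and Trpv3 from the skin, Slc15a1 and Mep1a from the brush border of the small intestine, Eno3 from muscle. Hoxb13, used below as a landmark, is a homeobox gene expressed in the most distal part of the gut. Its own fall in wild-type mice given DSS ranked 5 among all genes (-3.07), so it is not independent of the values that chose the 10 genes.

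Promoters are shown for the genes in which a searched motif was found, because the members share much of their variation between mice and their start regions can be compared directly. RefSeq start regions (GRCm38.p6, 250 bases before to 50 bases after the transcript start) were found for 8 of the 10 genes, Atp12a and Vsig2 being the others. Each of the 8 had 1 window. Those of Tgm3, Eno3, Mep1a and Kyat1 lie inside the gene intervals given below, so a start at the edge of those intervals was not searched. Both strands were searched for 4 motifs, and matches are marked in capitals. The CDX-type motif, named for the caudal homeobox factors of the gut, was TTTATNG. The HNF4-type motif, named for a nuclear receptor of absorptive cells, was CAAAGTCCA. The KLF-type motif, named for zinc finger factors of differentiating epithelium, was GGGTGTGG. The core promoter element called the TATA box was searched as TATAAA. The windows were chr2:130012090-130012389 (plus strand) for Tgm3, chr11:70656926-70657225 (plus strand) for Eno3, chr11:73267270-73267569 (plus strand) for Trpv3 and chr17:43502724-43503023 (minus strand) for Mep1a.
Tgm3: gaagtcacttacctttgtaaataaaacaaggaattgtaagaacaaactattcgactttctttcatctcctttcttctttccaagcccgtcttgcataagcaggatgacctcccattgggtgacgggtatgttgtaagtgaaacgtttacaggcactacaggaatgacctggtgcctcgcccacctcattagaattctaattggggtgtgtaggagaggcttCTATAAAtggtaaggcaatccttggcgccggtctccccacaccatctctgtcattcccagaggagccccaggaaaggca
Eno3: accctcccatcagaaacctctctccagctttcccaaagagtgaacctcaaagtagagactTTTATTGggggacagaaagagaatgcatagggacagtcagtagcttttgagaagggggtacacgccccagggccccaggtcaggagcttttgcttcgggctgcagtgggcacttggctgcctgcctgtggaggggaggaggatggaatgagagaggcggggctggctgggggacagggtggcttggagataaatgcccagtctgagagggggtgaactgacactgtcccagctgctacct
Trpv3: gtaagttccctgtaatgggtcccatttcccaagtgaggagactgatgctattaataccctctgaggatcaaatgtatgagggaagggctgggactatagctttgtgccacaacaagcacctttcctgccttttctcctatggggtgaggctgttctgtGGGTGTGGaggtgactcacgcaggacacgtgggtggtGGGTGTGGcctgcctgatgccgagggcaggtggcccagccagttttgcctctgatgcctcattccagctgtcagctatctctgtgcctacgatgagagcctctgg
Mep1a: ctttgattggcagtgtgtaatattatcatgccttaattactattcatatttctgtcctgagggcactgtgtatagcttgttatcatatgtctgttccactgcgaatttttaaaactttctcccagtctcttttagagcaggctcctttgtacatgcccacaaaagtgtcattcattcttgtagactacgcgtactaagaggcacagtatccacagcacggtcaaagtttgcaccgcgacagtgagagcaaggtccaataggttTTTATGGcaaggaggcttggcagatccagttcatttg
Tgm3 held a CDX-type match on the minus strand at -29 from the start, overlapping a TATA box at -28. Eno3 held a CDX-type match at -190, and Mep1a held one at 13 bases after the start. Trpv3 held the KLF-type motif at -92 and again at -55. Over 32851 mouse promoters of the same length, 10.9% held the CDX-type motif, 3.56% the KLF-type, 0.475% the HNF4-type and 13.6% the TATA box. None of these letters was found in the windows of Slc37a2, Slc15a1, Kyat1 and Smim24, so no searched motif was common to the windows searched.

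Values are log2 signal after RMA, the authors' normalization, on which a difference of 1 is a doubling. They are compared between mice for the same gene, never between genes. Fewer cells of a type and less RNA per cell cannot be told apart in whole tissue. Array medians ran from 6.65 to 6.95 and pairs of arrays correlated at 0.881 to 0.993. Krt5, Krt14 and Trp63, which define squamous epithelium, averaged 5.55 to 5.78, 6.63 to 7.08 and 5.94 to 6.47 in the 7 groups, and the 8 squamous markers averaged 5.85 ± 0.15 in transgenic mice given DSS and 6.00 ± 0.10 in untreated transgenic mice (SD, n = 5 each). Epcam, a marker of all gut epithelium, averaged 11.76 to 12.05. The mean of 10 epithelial markers varied more, from 11.49 in axenic controls to 12.10 in transgenic mice given DSS, so epithelial content is not taken as even. The tissue also carried muscle: the 8 smooth muscle markers averaged 10.72 ± 0.17 in transgenic mice given DSS and 10.75 ± 0.13 in untreated transgenic mice.

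The wild-type fall is the basis of the choice and is given as a description. Of the 10 genes, 8 lay lower in every wild-type mouse given DSS than in every untreated wild-type mouse, where 2.96% of all genes did, and nothing is read from that count. Among the falls of all genes Tgm3 ranked 2, Slc37a2 4, Slc15a1 6, Kyat1 7, Atp12a 11, Eno3 14, Trpv3 48 and Smim24 64. Mep1a ranked 326 and Vsig2 344, so these 2 were not among the largest falls in wild-type mice. In transgenic mice they ranked 26 and 10. The rule sets no numeric limit, so no margin can be given at which genes fell just inside or just outside. The list is not the top of the ranking. Cyp2f2, a cytochrome P450, ranked 3 and Slc20a1, a phosphate carrier, ranked 15, and both are absent from it.

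Tgm3 (chr2:129987794-130050399, GRCm38.p6 as are the other positions) encodes a calcium-dependent transglutaminase that cross-links proteins. In transgenic mice given DSS its log2 signal was 10.64, 11.19, 12.12, 11.58 and 11.87, against 12.40, 10.92, 12.96, 11.45 and 13.01 in untreated transgenic mice. Those groups overlapped, because untreated mice 31 and 28 lay within the treated range, and the difference of -0.67 (SE 0.41) did not pass the test (limma, adjusted p = 0.312). In wild-type mice given DSS it was 7.10, 6.89, 7.38, 10.99 and 10.88, against 12.45, 12.95, 12.90, 12.96 and 12.68 in untreated wild-type mice. The treated wild-type mice thus formed a pair near 11 and a trio near 7, both below the untreated range, and the means differed by -4.14 (SE 0.80), a 17.6-fold lower signal.

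Kyat1 (chr2:30185124-30206295) encodes a kynurenine aminotransferase, which makes kynurenic acid from the tryptophan metabolite kynurenine. The signal was 8.39, 8.29, 8.99, 9.09 and 8.61 in transgenic mice given DSS, against 9.23, 8.76, 9.49, 9.21 and 9.78 in untreated transgenic mice. Only untreated mouse 31 lay inside the treated range, and the difference of -0.62 (SE 0.20) did not pass after adjustment (limma, adjusted p = 0.0912). The signal was 7.67, 7.30, 7.39, 8.76 and 8.36 in wild-type mice given DSS, against 10.28, 11.34, 10.78, 10.83 and 11.11 in untreated wild-type mice, a difference of -2.97 (SE 0.29). Untreated transgenic mice were all below untreated wild-type mice.

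Eno3 (chr11:70653125-70662513) encodes the beta form of the glycolytic enzyme enolase. Transgenic mice given DSS had 9.56, 10.35, 10.84, 10.50 and 10.38, against 10.28, 8.11, 10.87, 8.76 and 10.64 in untreated transgenic mice. The mean was 0.59 higher with DSS (SE 0.49, limma adjusted p = 0.439), with the 2 lowest values in untreated mice 31 and 28. In wild-type mice the values with DSS were 8.23, 7.54, 7.25, 9.61 and 9.05, all below the 10.52, 11.26, 11.17, 11.08 and 9.99 of untreated wild-type mice (difference -2.47, SE 0.43).

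Mep1a (chr17:43474324-43504143) encodes the alpha subunit of meprin, a metalloprotease of the epithelial surface. With DSS the transgenic mice had 9.69, 9.59, 9.84, 10.13 and 10.51, against 10.97, 11.20, 11.01, 11.45 and 11.08 in untreated transgenic mice, so that the groups were apart, with a difference of -1.19 (SE 0.17). With DSS the wild-type mice had 10.93, 11.31, 8.56, 9.45 and 9.78, against 10.43, 10.91, 10.74, 11.14 and 10.99 in untreated wild-type mice. Here 2 treated mice were as high as untreated ones and the difference was -0.83 (SE 0.44). Mep1a and Vsig2 were already known to stand out in the transgenic contrast, so their calls there are a description.

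Slc37a2 (chr9:37229149-37255738) encodes a carrier that exchanges sugar phosphates for phosphate across the membrane of the endoplasmic reticulum. Its values in transgenic mice given DSS were 6.69, 7.08, 7.78, 7.32 and 7.85, against 9.42, 7.46, 10.89, 8.27 and 10.88 in untreated transgenic mice. Only untreated mouse 31 lay inside the treated range. At -2.04 (SE 0.60), a 4.11-fold lower signal, this was the second most negative difference of any gene in the transgenic mice, but it did not pass (limma, adjusted p = 0.0734). Without untreated mouse 31 the difference was -2.52 and passed (limma, adjusted p = 0.0304). That mouse had the lowest untreated value, so leaving it out raises the untreated mean by construction. With any other single mouse left out, Slc37a2 did not pass. Its values in wild-type mice given DSS were 6.17, 6.19, 6.51, 7.25 and 6.62, against 9.15, 10.70, 10.27, 9.89 and 9.29 in untreated wild-type mice (difference -3.31, SE 0.31). In the treated wild-type mice the percentile of Slc37a2 among all genes of an array averaged 43.1.

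Slc15a1 (chr14:121459621-121505254) encodes the proton-coupled carrier that takes up dipeptides and tripeptides. Treated transgenic mice had 9.24, 9.05, 9.81, 9.63 and 9.81, against 10.48, 9.22, 11.18, 10.01 and 11.51 in untreated transgenic mice. Mouse 31 was again the single untreated mouse inside the treated range. The difference of -0.97 (SE 0.37) did not pass (limma, adjusted p = 0.133), but without mouse 31 it was -1.28 and did (adjusted p = 0.0442). Mouse 31 had the lowest untreated value here too. With any other single mouse left out, Slc15a1 did not pass. Treated wild-type mice spanned 6.96 to 9.80 with a median of 9.02, all below the 10.83 to 12.05 of untreated wild-type mice (difference -2.98, SE 0.50).

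Atp12a (chr14:56364669-56388551) encodes the catalytic subunit of the non-gastric proton-potassium pump. Treated transgenic mice had 7.93, 7.48, 7.88, 8.02 and 7.30, against 8.77, 6.41, 8.56, 6.60 and 9.21 in untreated transgenic mice. The treated mice sat between 3 higher and 2 lower untreated mice, numbers 31 and 28, and the difference was -0.19 (SE 0.50, limma adjusted p = 0.821). Treated wild-type mice had 6.80, 6.76, 6.40, 8.51 and 8.62, against 9.50, 10.37, 10.26, 9.83 and 10.32 in untreated wild-type mice (difference -2.64, SE 0.43). Untreated transgenic mice were all below untreated wild-type mice for this gene, by a mean of -2.15 (SE 0.51), which ranked 1 among the falls of all genes between these groups. The untreated wild-type mice took part in choosing the genes, so nothing is read from that rank. Mice 31 and 28 were the lowest of the untreated transgenic mice.

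Trpv3 (chr11:73267489-73300368) encodes a warmth-sensitive cation channel. Its signal was 7.22 to 7.58 in transgenic mice given DSS and 6.93 to 7.99 in untreated transgenic mice, so that the treated range lay inside the untreated one (difference -0.05, SE 0.20, limma adjusted p = 0.882). It was 6.13, 6.18, 6.16, 7.17 and 6.94 in wild-type mice given DSS and 7.55, 8.43, 8.55, 8.49 and 8.85 in untreated wild-type mice (difference -1.86, SE 0.27). The treated wild-type values were low, with a percentile among all genes that averaged 42.0. Smim24 (chr10:81393064-81395079), a small integral membrane protein, had 11.34 to 11.62 in transgenic mice given DSS and 10.94 to 12.07 in untreated transgenic mice (difference -0.12, SE 0.21, limma adjusted p = 0.728). It had 9.80 to 10.88 in wild-type mice given DSS and 12.09 to 12.50 in untreated wild-type mice (difference -1.72, SE 0.20). For both genes every treated transgenic mouse exceeded every treated wild-type mouse.

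Vsig2 (chr9:37539255-37544205) encodes a membrane protein with immunoglobulin domains. The treated transgenic mice had 7.08, 7.21, 7.17, 7.03 and 7.15, against 8.71, 9.10, 7.69, 9.43 and 8.35 in untreated transgenic mice. The difference was -1.53 (SE 0.26), with no overlap. The treated wild-type mice had 7.11, 7.54, 7.11, 7.05 and 6.64, against 8.06, 8.12, 8.09, 7.78 and 7.48 in untreated wild-type mice, where treated mouse 56 just exceeded the lowest untreated mouse (difference -0.82, SE 0.18). Untreated mice 31 and 28, low for most of the other genes, had the 2 highest Vsig2 values of all 35 mice.

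**Figure D1:**
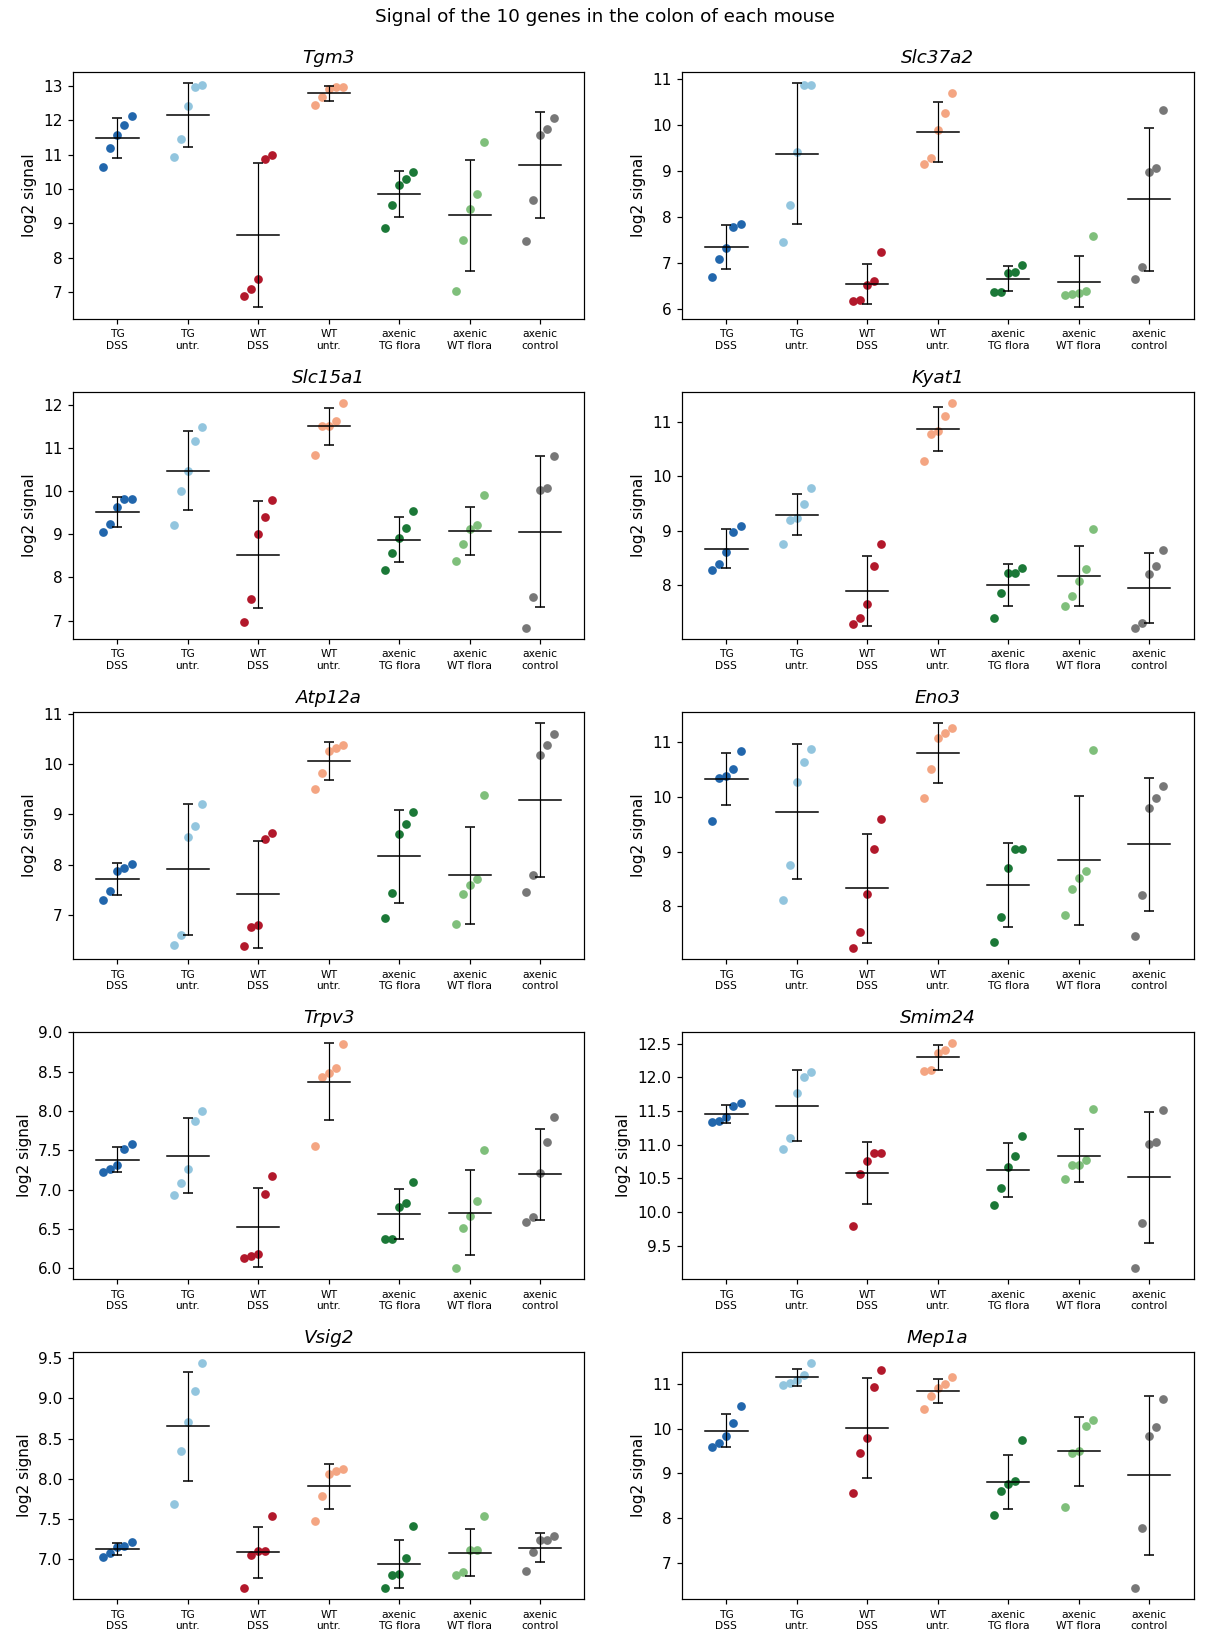
Log2 signal of each of the 10 genes in 35 mice, 1 panel per gene and 1 point per mouse, with horizontal lines for group means and bars for the SD (n = 5). Tgm3 in wild-type mice given DSS splits into 3 mice near 7 and 2 near 11. Vsig2 lies between 6.64 and 7.54 in every mouse given DSS, a low signal near the array medians.

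Of the 8 genes other than Vsig2 and Mep1a, 0 were called lower in transgenic mice given DSS than in untreated transgenic mice (limma, adjusted p under 0.05), where 1.08% of all genes were. Before adjustment 3 of these 8 had p under 0.05, where 26.2% of all genes did. The difference was below 0 for 7 of the 8, where 52.5% of all genes were, and their median was -0.41 beside -0.015 over all genes. All 8 overlapped between the groups, where 3.3% of all genes were lower without overlap. Without untreated mouse 31, Slc37a2 and Slc15a1 were called lower, where 0.774% of all genes were. These were the 2 of 100 member values that became called with 1 mouse left out in turn. Mouse 31 was the lowest untreated transgenic mouse for both genes, so leaving it out raises the untreated mean by construction. Vsig2 and Mep1a were called lower in the fit of all 10 mice, without overlap, and nothing is read from those 2 calls because both genes were known for this contrast.

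The transgenic change minus the wild-type change was positive for 8 genes and negative for Vsig2 and Mep1a. It was 3.47 for Tgm3 (SE 0.97), 3.06 for Eno3 (SE 0.71), 2.45 for Atp12a (SE 0.72), 2.35 for Kyat1 (SE 0.38) and 2.01 for Slc15a1 (SE 0.67). For Slc37a2 it was 1.27 with an SE of 0.73. These values contain the wild-type fall that chose the genes, so no test was made. They also contain the untreated levels, which were unequal: Kyat1, Atp12a and Smim24 were lower in all 5 untreated transgenic mice than in all 5 untreated wild-type mice (0.728% of all genes were), by -1.58 (SE 0.21), -2.15 (SE 0.51) and -0.72 (SE 0.22). Among treated mice, 9 of 10 means were higher in transgenic than in wild-type mice, by up to 2.83 for Tgm3 (SE 0.83), where 53.7% of all genes had a difference below 0. Trpv3 by 0.86 (SE 0.21) and Smim24 by 0.88 (SE 0.19) did so without overlap, where 1.41% of all genes were. The treated and the untreated wild-type mice are the 2 groups whose values chose the genes, as low and as high. Nothing is therefore read from the counts among treated mice or from those among untreated mice.

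**Figure D2:**
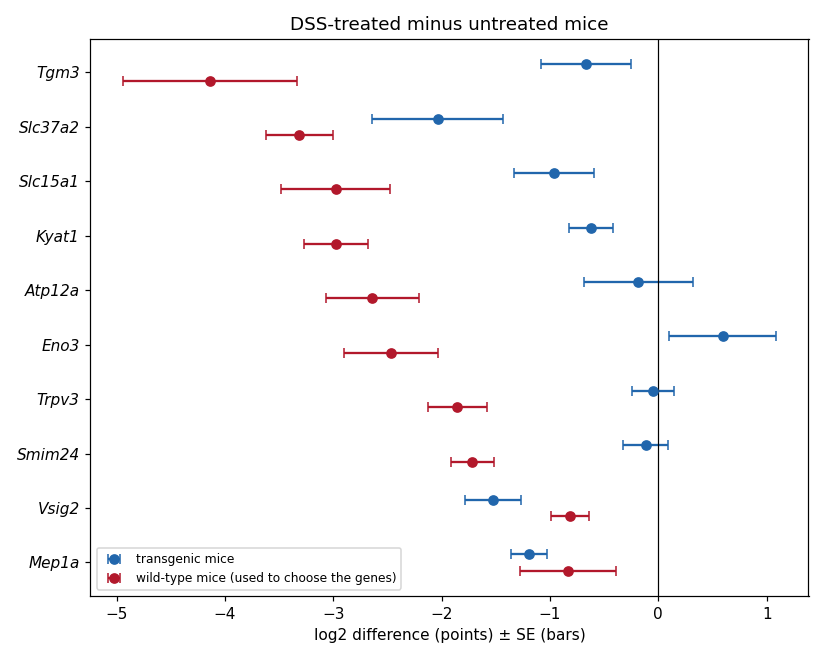
Log2 difference between DSS-treated and untreated mice for each gene (points) with its SE (bars), in transgenic mice (blue, 5 against 5) and in wild-type mice (red, 5 against 5, the contrast that chose the genes). Vsig2 at -1.53 and -0.82 and Mep1a at -1.19 and -0.83 are the 2 genes with the larger fall in transgenic mice.

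Untreated transgenic mice 31 and 28 carried much of the spread in the transgenic contrast. Each lay below the lowest untreated wild-type mouse for 8 of the 10 genes. Their Hoxb13 signal was 8.53 and 8.89, where the other 3 untreated transgenic mice had 10.42 to 10.57 and the treated transgenic mice 9.72 to 10.29. With both left out, a choice made after seeing the data, 7 of the 10 genes were called lower, Vsig2 and Mep1a among them, where 1.61% of all genes were. Slc37a2 then differed by -3.05 (limma, adjusted p = 0.0041), Slc15a1 by -1.54 (adjusted p = 0.0132), Tgm3 by -1.31 (adjusted p = 0.0449), Atp12a by -1.12 (adjusted p = 0.0177) and Smim24 by -0.49 (adjusted p = 0.0388). Mice left out because they are low in most of these genes leave a higher untreated mean by construction. With the mean of 8 posterior Hox genes as a covariate in all 10 mice, Slc37a2 passed at -1.73 (adjusted p = 0.017). The part of Hoxb13 level in the differences between these groups was not tested further.

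Among wild-type mice given DSS, those with more Tgm3 also had more Hoxb13. Treated mice 53 and 52, with the highest Tgm3 of their group, had Hoxb13 at 9.65 and 9.21, and the other 3 treated wild-type mice had 6.39 to 7.43. Untreated wild-type mice had 10.33 to 11.41. The posterior Hox genes had 0 of 8 members called in transgenic mice given DSS (limma; 1 of 8 lower at an unadjusted p under 0.05), with a median of -0.11, and 5 of 8 called lower in wild-type mice given DSS, with a median of -1.01, where 2.13% of all genes were called lower. That the counts differ was not tested. Over the 25 mice outside the 2 wild-type groups that chose the genes, Pearson's r with Hoxb13 was 0.90 for Tgm3 (Spearman's rho 0.88), 0.87 for Eno3 (0.90), 0.86 for Trpv3 (0.82), 0.78 for Smim24 (0.88), 0.72 for Slc15a1 (0.76), 0.71 for Kyat1 (0.73), 0.62 for Slc37a2 (0.71) and 0.48 for Atp12a (0.51). Mep1a had 0.36 (0.38) and Vsig2 0.06 (0.24). These 25 points share 5 groups and whole-tissue RNA, and the values are a description without a p. Within groups r was 0.93 for Tgm3, 0.85 for Eno3, 0.21 for Mep1a and -0.38 for Vsig2. The Vsig2 value leans on untreated transgenic mice, where its SD was 0.68. Without the 2 mice farthest from the median of Hoxb13, r not taken within groups was 0.84 for Tgm3 and 0.91 for Eno3. With the mean of 8 posterior Hox genes r was lower for most of them, at 0.76 for Tgm3, 0.75 for Eno3, 0.61 for Slc15a1 and 0.60 for Smim24, and higher for Slc37a2 at 0.73 and Atp12a at 0.52. With the mean of the epithelial markers, r within groups was 0.80 for Mep1a, 0.76 for Smim24, 0.75 for Slc15a1 and 0.54 for Tgm3.

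**Figure D3:**
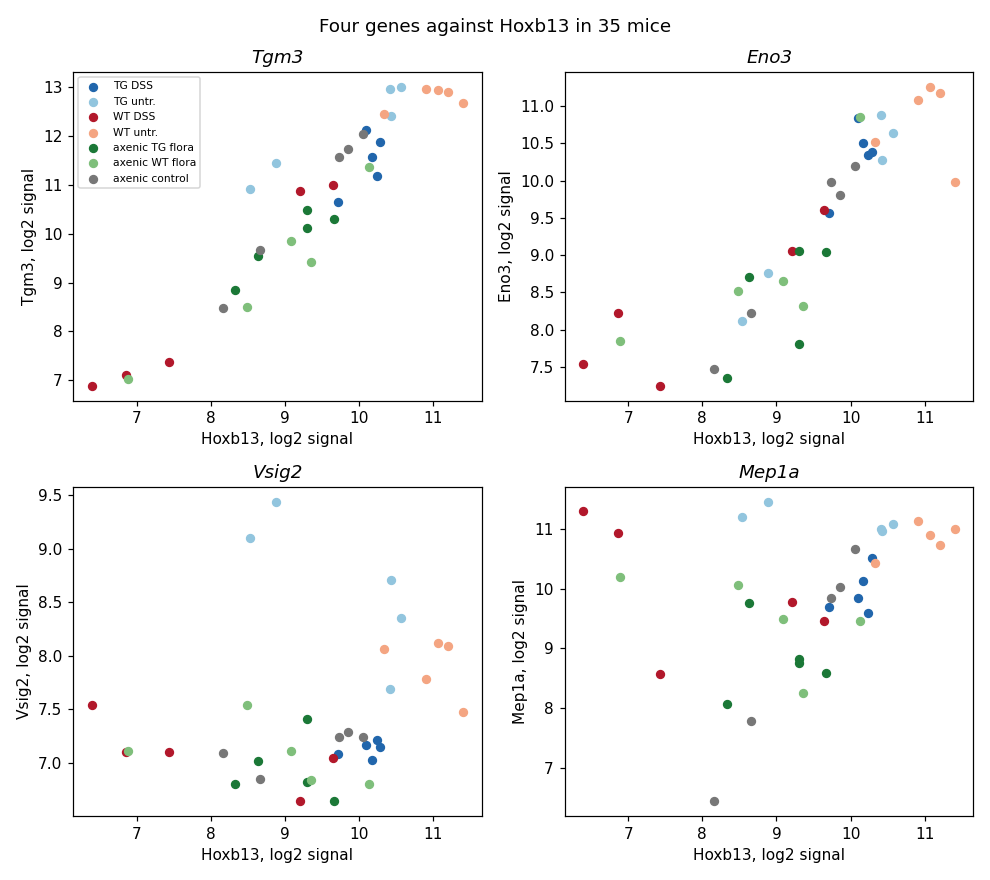
Log2 signal of Tgm3, Eno3, Vsig2 and Mep1a (vertical) against Hoxb13 (horizontal) in 35 mice, coloured by group. Tgm3 and Eno3 run with Hoxb13 (r = 0.90 and 0.87 over the 25 mice outside the 2 wild-type groups) and Mep1a does so less closely (r = 0.36). Vsig2 does not (r = 0.06, and -0.38 within groups, a value that leans on untreated transgenic mice).

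The 10 genes were not 1 block. Of deviations from group means in the same 25 mice, every pair among the 8 genes other than Vsig2 and Mep1a correlated at 0.75 to 0.96, the closest being Slc15a1 with Smim24. Mep1a correlated with those 8 at 0.37 to 0.72. Vsig2 ran against them, at -0.42 to -0.11, and met Mep1a at 0.30. The genes most like the mean of the 10 over these mice were Abat (r = 0.976), Cachd1 (0.936), Ndrg2 (0.935), Fbxo32 (0.929), Mettl7a1 (0.926), Retreg1 (0.925), Itih5 (0.923) and Scin (0.919).

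**Figure D4:**
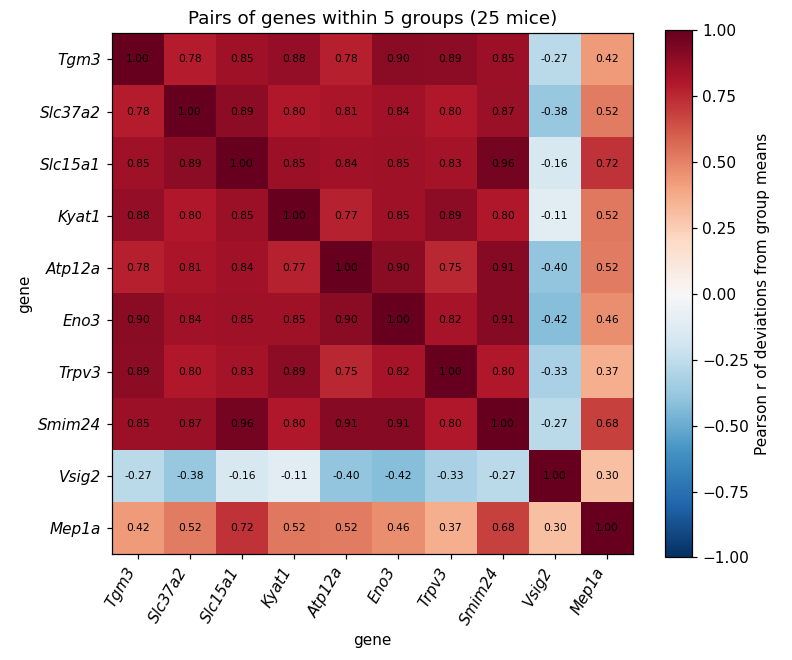
Pearson correlation of each pair of the 10 genes, computed on deviations of log2 signal from the group mean in 25 mice of 5 groups (the 2 wild-type groups that chose the genes are left out). The block of 8 genes runs from 0.75 to 0.96, with Mep1a weaker and Vsig2 mostly below 0. The Vsig2 values lean on untreated transgenic mice, where it spread most.

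The label given to these genes, differentiated surface genes, was set against a list of 25 surface colonocyte genes. In transgenic mice given DSS, Car4 (a carbonic anhydrase, -0.35) and Cyp2c55 (a cytochrome P450, -1.03) were called lower, and Krt20, a keratin of differentiated colonocytes, at 0.80 and Plac8 at 1.21 were called higher (limma), where 1.08% of all genes were called lower and 3.46% higher. In wild-type mice given DSS, 2 of the 25 were called lower, Slc26a3 (a chloride-bicarbonate exchanger, -1.33) and Aqp8 (a water channel, -2.13), and 3 were called higher, Emp1 (1.58), Tmigd1 (1.42) and Plac8 (0.75), where 2.13% of all genes were called lower and 3% higher. The list median was -0.02 in transgenic and 0.19 in wild-type mice. In recipients of transgenic flora 3 of the 25 were called higher than in axenic controls and 0 lower, with a median of 0.57, where 0.327% of all genes were called higher. In recipients of wild-type flora 15 were called higher than in those controls and 1 lower, with a median of 1.01, where 32.1% of all genes were called higher. The list had calls in both directions. How its genes change with DSS cannot show in which cells the 10 genes are expressed, so the label was not tested. The 10 genes are named here by their roles and not as surface genes. General epithelial markers, 10 in number, had 0 called lower in transgenic mice (0 at an unadjusted p under 0.05) and 0 in wild-type mice (2 at that p), and in transgenic mice 1, Elf3, rose by 0.71. Their mean was 12.10 ± 0.06 in transgenic mice given DSS and 11.92 ± 0.07 in untreated transgenic mice, without overlap, and 11.83 ± 0.36 and 11.96 ± 0.10 in the wild-type groups in the same order. Among fibroblast markers 4 of 6 were called higher in transgenic mice given DSS (median 1.00), among macrophage markers 3 of 7 (median 0.98), and the 7 neutrophil markers had a median of 0.91 with 0 called (1 at an unadjusted p under 0.05). In wild-type mice given DSS the counts were 4 of 6, 3 of 7 and 5 of 7. Their part in the values of the 10 genes was not tested.

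Of 36 measured relatives of the 10 genes, 1 was called in transgenic mice given DSS, or 2.78%, where 4.55% of all genes were called in either direction. Among 8 transglutaminases Tgm2, the widely expressed form, rose by 1.30 (limma, adjusted p = 0.0102) and differed by 1.93 in wild-type mice, opposite to Tgm3. Kyat3, the other kynurenine aminotransferase of this kind, differed by -0.36 in transgenic mice (adjusted p = 0.072) and by -0.73 in wild-type mice, the same sign as Kyat1. Of the peptide carriers, Slc15a3, known from lysosomes of immune cells, differed by 0.77 in transgenic mice (adjusted p = 0.086) and 1.08 in wild-type mice. Slc37a4, the glucose-6-phosphate carrier, differed by -0.08 in transgenic and -0.88 in wild-type mice. Among the 6 TRPV channels Trpv2 differed by 0.46 in transgenic mice (adjusted p = 0.090) and 0.43 in wild-type mice, and Trpv6, a calcium channel of absorptive epithelium, by -0.27 and -0.59. Mep1b, the beta subunit of meprin, differed by 0.10 in transgenic and 0.97 in wild-type mice. The gastric pump subunit Atp4a differed by -0.02 and -0.08, and Eno2, the neuronal enolase, by 0.11 and 0.06.

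Wider pathways, apart from the surface colonocyte list above, held 0 to 2 calls each in transgenic mice given DSS, to be read beside that 4.55%. Of 15 brush border hydrolases Mgam, a starch-digesting glucosidase, rose by 0.73 and 0 fell. Of 11 tryptophan and kynurenine genes Kmo, which makes hydroxykynurenine, rose by 0.71, and of 11 glycolytic genes Hk2, a hexokinase, rose by 1.34. Of 12 cornified envelope genes Sprr1a rose by 1.11 and Lor fell by 0.30. Of 19 nutrient carriers 0 were called (5 lower and 1 higher at an unadjusted p under 0.05). In wild-type mice 4 of 19 were called lower, where 2.13% of all genes were, with Slc20a1, a phosphate carrier, at -2.46.

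Axenic mice were compared among themselves, all of them given DSS. Tgm3 was 10.11, 9.54, 10.49, 8.86 and 10.30 in recipients of transgenic flora and 11.37, 9.42, 7.03, 8.51 and 9.85 in recipients of wild-type flora. Axenic controls had 12.05, 8.49, 11.74, 9.68 and 11.57. The controls formed a trio near the treated transgenic mice and a pair, CT517 and CT229, inside the range of the recipients of wild-type flora. Slc37a2 was 6.95, 6.37, 6.80, 6.36 and 6.79 with transgenic flora and 7.59, 6.30, 6.39, 6.32 and 6.34 with wild-type flora. It was 10.33, 6.92, 8.98, 6.66 and 9.06 in controls, where the same 2 mice were low. The percentile of Slc37a2 among all genes averaged 46.1 with transgenic and 45.9 with wild-type flora, so its signal was low in both. Atp12a was 7.45, 8.62, 8.80, 6.94 and 9.05 with transgenic flora, 9.39, 7.60, 7.73, 6.82 and 7.42 with wild-type flora and 10.59, 7.46, 10.39, 7.80 and 10.19 in controls. For all 3 genes the recipients overlapped the controls through those mice.

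Slc37a2 was the single gene of the 10 called between recipients of wild-type flora and axenic controls, where 35.2% of all genes were called lower and 67.3% in either direction. The difference was -1.80 (SE 0.62, limma adjusted p = 0.0243). It no longer passed without recipient WT597 (adjusted p = 0.0516) or WT098 (0.05001), or without control CT465 (0.055) or CT093 (0.0532). Atp12a differed by -1.49 (SE 0.68, adjusted p = 0.0686), and passed without recipient WT880 at -1.89, without control CT517 at -1.95 and without control CT229 at -1.86 (adjusted p = 0.0251, 0.0205 and 0.0298). The 10 differences ran from -1.80 to 0.54 with a median of -0.18, beside -0.034 over all genes. With 13401 genes called, this pair of groups stood apart across the array, and a share of calls below that background says little of the members themselves. Marker lists in the same comparison are to be read beside 32.1% of all genes called higher and 35.2% lower. Called higher were 7 of 10 epithelial markers (median 0.47), 6 of 6 pancreatic acinar markers (3.47) and 5 of 7 macrophage markers (1.07). So were 4 of 6 fibroblast markers (0.92) and 3 of 7 neutrophil markers (1.83), the last a count near that share. Of squamous markers 6 of 8 were called lower (-0.45). The part of these cell types in the difference of Slc37a2 was not tested.

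None of the 10 was called between recipients of transgenic flora and the same controls, where 0.01% of all genes were called lower, and 1 of 10 had an unadjusted p under 0.05, as 18.1% of all genes did. That was Slc37a2, at -1.74 (SE 0.60, limma adjusted p = 0.185). The differences ran from -1.74 to 0.10 with a median of -0.35, beside -0.045 over all genes. The count of all genes called here, 67, was 5307 without recipient TG922. Between recipients of transgenic and wild-type flora, 0 of 10 were called and 0 had an unadjusted p under 0.05, where 0% and 34.4% of all genes did. These differences ran from -0.69 for Mep1a to 0.62 for Tgm3, and the groups overlapped for all 10 genes, where 4.45% of all genes were lower and 2.98% higher without overlap. The 3 axenic comparisons share their groups in pairs, so their values are given side by side and not set against each other.

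**Figure D5:**
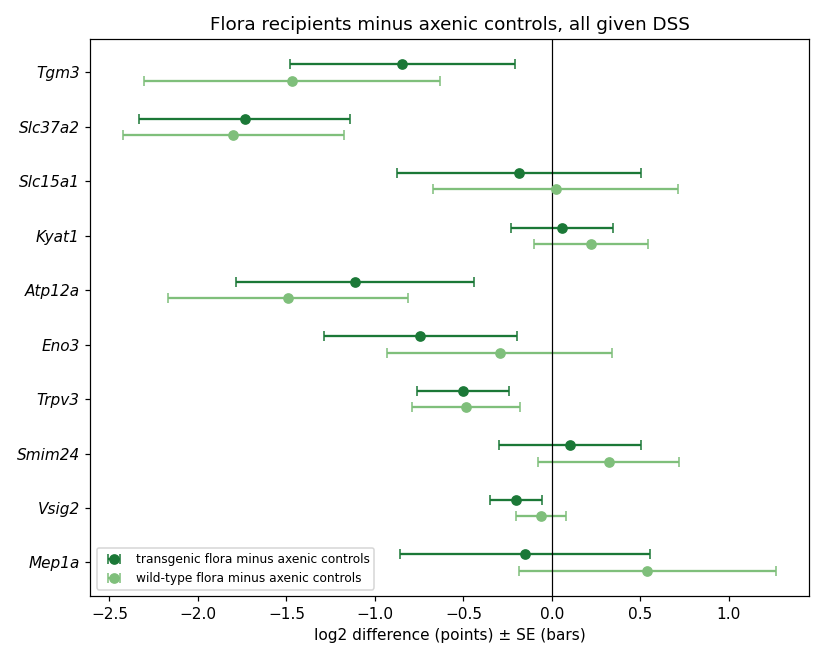
Log2 difference from axenic controls (points) with its SE (bars) for each gene in recipients of transgenic flora (dark green) and of wild-type flora (light green), 5 mice per group, all given DSS. Both comparisons use the same 5 controls, and Slc37a2 lies at -1.74 and -1.80.

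Controls CT517 and CT229 had the lowest mean over the 10 epithelial markers of all axenic mice, 11.09 and 11.33, and Hoxb13 at 8.16 and 8.66 where the other 3 controls had 9.74 to 10.06. Hoxd13 did not follow, at 7.33 in both where the other 3 had 6.54 to 7.33. Their mean over the posterior Hox genes was 6.64 and 6.82, beside 6.72 to 6.92. Recipients of wild-type flora had 11.82 to 12.13 for the epithelial markers, and recipients of transgenic flora 11.55 to 11.88. Leaving both controls out, again a choice made after seeing the data, gave 2 of 10 called lower in recipients of transgenic flora (Slc37a2 at -2.80, adjusted p = 0.0035), where 0.432% of all genes were, and 5 of 10 in recipients of wild-type flora (Slc37a2 at -2.87), where 30.9% of all genes were. The count over all genes in the first of these comparisons moves widely with single mice, as given above. These 2 controls are low in most of the 10 genes, so leaving them out raises the control mean by construction.

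Beside untreated conventional wild-type mice, which differ from axenic mice in flora as well as in DSS, all 10 means were lower in each axenic group, where 49.9%, 58.2% and 41.4% of all genes were in recipients of transgenic flora, recipients of wild-type flora and controls. No overlap was seen for 10 genes in recipients of transgenic flora (5.63% of all genes), 8 in recipients of wild-type flora (5.7%) and 5 in controls (9.09%). The untreated wild-type mice took part in choosing the genes, so these counts are a description. Tgm3 differed by -2.93, -3.55 and -2.08 in the same order, Kyat1 by -2.86, -2.70 and -2.92, and Atp12a by -1.89, -2.27 and -0.77. Slc37a2 differed by -3.21, -3.27 and -1.47. The mean of the 10 epithelial markers was 11.70, 12.03 and 11.49 in that order and 11.96 in untreated wild-type mice. Its part in these differences was not tested. Axenic state, flora and DSS cannot be told apart here.

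Ordered by mean, untreated wild-type mice stood highest for 8 genes and untreated transgenic mice for Vsig2 and Mep1a. Wild-type mice given DSS stood lowest for 7, axenic controls for Smim24 at 10.52 ± 0.97, and recipients of transgenic flora for Vsig2 at 6.94 ± 0.29 and Mep1a at 8.80 ± 0.61 (SD, n = 5 each). The values of both wild-type groups chose the genes, so the places of those groups in the orders are a description. Most neighbours in these orders overlapped. The exceptions were Kyat1 and Smim24 between untreated transgenic and untreated wild-type mice, at 9.29 ± 0.38 and 10.87 ± 0.40 for Kyat1 and at 11.57 ± 0.53 and 12.29 ± 0.18 for Smim24, and Vsig2 between axenic controls at 7.14 ± 0.18 and untreated wild-type mice at 7.91 ± 0.28. Vsig2 lay between 6.64 and 7.54 in all 25 mice given DSS. That is near the array medians of 6.65 to 6.95, and its percentile among all genes averaged 52.9 to 56.9 in these groups. A narrow range at such low signal is not read as a set level. Mep1a in axenic controls ran from 6.44 to 10.67, the widest spread it had in any group.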

How the data were processed

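Colon RNA of 35 mice (200 ng each) was read on 1 array per mouse. The deposited values are log2 signal per probe set, made by the authors with RMA in Affymetrix Expression Console 1.1, per the submitters' processing notes. Probe sets with exactly 1 symbol (21639 of 28090) were kept, 1539 with several symbols and 4912 not listed in the annotation were not used, and the brightest probe set stood for a gene (19908 genes). No value column was left out (0). Arrays carry no depth, and precision is limited by 5 mice per group.

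Each comparison was fitted in limma 3.58.1 (R 4.3.3) to its 2 groups, two-sided, adjusted by Benjamini-Hochberg over all genes, called under 0.05, and tested on simulated data. SE is limma's moderated standard error. Comparisons that involve untreated or DSS-treated wild-type mice, which chose the genes, were described without a test of the members, and calls of other genes there come from the same kind of fit. The members and lists were chosen with earlier results of these data known. Named genes were the members, their families, up to 4 per pathway list by p in the transgenic contrast, markers beside a result and 8 like genes. Python 3.11.15 was used for the rest. Alternatives were other variance models, array weights, normalization, probe set rules, a filter below the 40th percentile, covariates and mice left out.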

Additional observations from a re-analysis of the deposited data

Results flagged for a closer look

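Mouse 880 was far from the other 4 recipients of wild-type flora for 3 of the 10 genes: Slc37a2 at 7.59, Eno3 at 10.86 and Smim24 at 11.52. The gap to its nearest neighbour was 0.931, 0.731 and 0.725 of the group's whole range, above Dixon's 95% critical value of 0.71 for 5 samples. Chance flags about 1 in 20 groups, and 70 groups of 5 mice were looked at. The 3 genes vary together between mice, so these are not separate signals. The same mouse had Hoxb13 at 10.13, against 6.89 to 9.35 in the other 4, and a mean over 6 pancreatic acinar genes of 6.86, against 10.44 to 11.62. Their part in the values was not tested.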

How the results depend on the processing

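No paired analysis was possible because the mouse numbers are not shared between groups. In transgenic mice, DSS against untreated, 2 members were called; array weights gave 6, an epithelium covariate 0 (no gene of the array was called with it, and its values did not overlap between the groups), leaving out mice 31 and 28 gave 7, and leaving out 1 mouse in turn gave 2 to 4. Slc37a2 passed with all 35 arrays in 1 model (adjusted p = 0.0398), where Mep1a, at the same difference of -1.19, did not (0.196). With a posterior Hox covariate Atp12a was at 0.020 and Trpv3 at 0.028, above 0. Leaving out 1 mouse in turn, members near 0 crossed it: Atp12a ran from -0.56 (without TG31) to 0.14 (without TG26), Trpv3 from -0.17 to 0.092 and Smim24 from -0.28 to 0.0069, lowest and highest without the same 2 mice. Eno3 was at -0.27 without mice 31 and 28. For recipients of wild-type flora against controls the count of 1 was 2 with all 35 arrays, 0 after quantile normalization, 4 with array weights, 8 with an epithelium covariate, 2 with a posterior Hox covariate, 2 with a smooth muscle covariate, 5 without controls CT517 and CT229, and 0 to 3 leaving out 1 mouse. For recipients of transgenic flora against controls the count of 0 was 5 with array weights, 1 with an epithelium covariate and 2 without those controls, and stayed 0 to 0 leaving out 1 mouse. Between the 2 floras it was 0 throughout. Over all genes, calls ranged from 0 to 3266, 2837 to 14427, 31 to 7434 and 0 to 4886 in these 4 comparisons in order, and from 178 to 1668, 11735 to 13465, 27 to 5307 and 0 to 4700 leaving out 1 mouse. Of the members' single differences in each comparison 89, 73, 81 and 85 of 100 kept direction and side of the threshold over alternatives other than leaving out mice 1 at a time, and the causes were not tested.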
